A study of Mus musculus with 2 samples.

Results

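The BCL2 family decides whether the mitochondrial outer membrane stays intact when a cell is under stress. 10 of its genes were followed in CT26, an established mouse colon carcinoma cell line. They are the pro-survival genes Bcl2, Bcl2l1, Mcl1 and Bcl2l2, the pore-forming effector genes Bak1 and Bok, and the BH3-only genes Bid, Bad, Bcl2l11 and Pmaip1. They were taken by gene symbol from the deposited table of 54532 genes, and each symbol matched 1 row. RNA came from 2 cultures. One had been given mouse Oct4 together with human SOX2 by lentivirus, and the other a lentivirus with the empty vector only. Both were grown for 4 days in medium with serum, and the labels give the control genotype as wild type. The labels do not name the promoter that drives the factors, and do not say whether either culture was a clone. Each culture gave 1 library, so every difference below compares 2 libraries, with no replicate check and no test across samples.

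Pro-survival proteins hold BAX, BAK and the BH3-only proteins in check by binding their BH3 segment. When BH3-only proteins are induced or activated, they occupy the pro-survival proteins or engage the effectors directly. BAX, BAK and, in some settings, BOK then open the outer membrane, cytochrome c leaves, and the apoptosome activates caspases. MCL1 and BCL-XL (the product of Bcl2l1) are the pro-survival proteins on which many solid tumour cells depend. Much of the control over the family acts on protein stability, phosphorylation and splicing, which gene-level RNA values do not show.

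The factors given to the cells act on DNA, so the stretches upstream of the 3 members with ratios farthest from 1 in either direction are shown. The sequences are from RefSeq on GRCm38.p6, 5′ to 3′ along the gene, and end before the first exon base in RefSeq or in the annotation GENCODE M21. Capitals mark ACAAT or ATTGT, the core of the motif bound by SOX proteins, and GGGCGG or CCGCCC, the GC box. The octamer ATGCAAAT, bound by OCT proteins, would also be in capitals. The Bcl2l1 stretch, before the most upstream of its starts, is chr2:152831729-152831978 on the minus strand. Bid is at chr6:120916854-120917074 on the minus strand, and Bok at chr1:93685325-93685574 on the plus strand.
Bcl2l1: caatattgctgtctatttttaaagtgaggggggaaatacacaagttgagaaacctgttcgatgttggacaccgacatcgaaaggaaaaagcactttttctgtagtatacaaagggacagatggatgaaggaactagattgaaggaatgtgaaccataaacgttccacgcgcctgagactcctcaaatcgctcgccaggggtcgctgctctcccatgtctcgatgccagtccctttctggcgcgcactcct
Bid: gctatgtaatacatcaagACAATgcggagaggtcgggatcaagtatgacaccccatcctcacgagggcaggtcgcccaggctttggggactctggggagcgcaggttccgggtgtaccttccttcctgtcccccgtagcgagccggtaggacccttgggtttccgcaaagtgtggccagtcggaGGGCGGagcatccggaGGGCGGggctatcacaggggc
Bok: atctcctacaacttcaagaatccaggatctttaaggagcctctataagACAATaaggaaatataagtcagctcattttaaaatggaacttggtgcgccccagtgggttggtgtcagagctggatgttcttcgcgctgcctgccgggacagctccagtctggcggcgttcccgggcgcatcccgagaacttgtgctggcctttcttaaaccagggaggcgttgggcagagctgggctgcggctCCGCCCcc

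Promoter windows of 250 bases were present for 9 of the members, 13 windows in all, and Pmaip1 had no entry. On either strand, 0 of the 13 windows held the octamer, which 1.60% of all 32851 windows of that length hold. The SOX core was in 5 of the 13 windows, against 27.7% of all windows, and the GC box was in 8 of 13, against 32.7%. The members' windows were richer in G and C, with a median of 63.6% and a range of 47.6% to 74.8%, beside a median of 52.4% over all windows. Of the stretches printed above, Bcl2l1 shows none of these motifs, Bid shows 1 SOX core and 2 GC boxes, and Bok shows 1 SOX core and 1 GC box. Another Bcl2l1 window, before a start further downstream, held 2 SOX cores. The full Bid window, with the 29 exon bases left out of the print, held 3 GC boxes. A match of letters describes the window and does not show binding.

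The control library held 32262408 reads assigned to genes and the Oct4 and SOX2 library 31521115, recovered from the deposited values as described under the processing. The labels were checked on the gene for Oct4: Pou5f1 had 0 reads in the control library and 12406 with Oct4 and SOX2. Mouse Sox2 stood at 14.1 and 23.3 FPKM, and since the vector carries human SOX2 its reads may not count the introduced copy in full. The label of colon cancer cell was checked against epithelial markers. Only Krt18, at 15.2 and 11.3 FPKM, and Krt20, at 14.9 and 28.3 FPKM, reached 1 FPKM among 8 such markers. Cdh1 had 0 reads in both libraries, Epcam 1 and 2 reads, and Krt8 21 and 2 reads. Cdx2 (14 and 6 reads), Krt19 (2 and 2) and Vil1 (2 and 1) were also below 1 FPKM. Of 8 leukocyte markers only Cd68 reached 1 FPKM, with Ptprc at 2 reads in each library, and of 4 endothelial markers none did. All 6 fibroblast and mesenchymal markers were measured, and they differed between the libraries in both directions, with Vim at 599 and 966 FPKM, Col1a2 at 185 and 306 FPKM, Col1a1 at 62.1 and 39.99 FPKM and Pdgfrb at 14.1 and 4.93 FPKM. Of 5 muscle markers Myh1 alone reached 1 FPKM, with 0 reads in the control library and 6541 in the other, while Myod1 had 0 reads in both. The part of these differences in the values below was not tested.

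Of the 10 members, 9 were measured, meaning at least 1 FPKM in at least 1 library. FPKM counts fragments per kilobase of a gene, adjusted for library depth. Counted on the log2 scale of FPKM + 1, 0 of the 9 were 1.5-fold or more apart, beside 12.9% of all 12401 measured genes, and 0 of the 9 were 2-fold or more apart, beside 4.27%. With 9 genes, counts of 0 lie near these shares and set the members apart in no way. The log2 ratios ran from -0.56 to 0.45 with a median of -0.01, and the median over all measured genes was also -0.01. Their median size regardless of sign was 0.24, beside 0.21 over all measured genes. Each ratio below is given with an exact 95% interval for counting error alone. In bulk RNA, fewer cells expressing a gene and less of its RNA per cell cannot be told apart.

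By that interval, 4 members were higher with Oct4 and SOX2, 4 were lower, and the interval of Bcl2l2 held 1. Over all measured genes the interval left out 1 for 67.3%, with 32.1% higher and 35.2% lower. Among the 7035 genes with at least 1668 reads over both libraries, as many as the least-read measured member, these shares were 77.6%, 36.1% and 41.5%. An interval that leaves out 1 was thus common among genes of this depth. All 9 intervals lay within 2-fold.

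**Figure D1:**
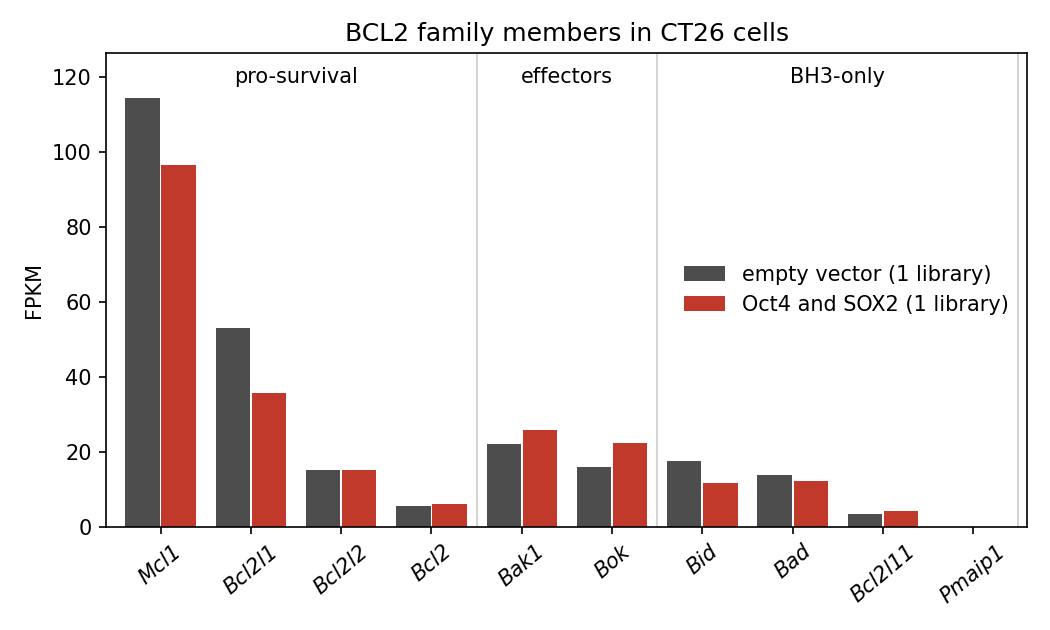
Level of each member in FPKM (vertical axis) in the empty-vector library (grey) and the Oct4 and SOX2 library (red), 1 library each and hence no error bars. Mcl1 and Bcl2l1 stand highest in both, and Pmaip1 is at 0 in both.

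Among the pro-survival genes, Mcl1 was the most abundant in both libraries and Bcl2l1 was the member with the lowest log2 ratio. Mcl1 (ENSMUSG00000038612, chromosome 3 from 95658788 to 95663176 in GRCm38) encodes a short-lived pro-survival protein. It stood at 114 FPKM from 12487 reads in the control and at 96.6 FPKM from 10523 reads with Oct4 and SOX2. That is 1.18-fold lower (1.15 to 1.22), with the level at percentile 97.1 and then 96.5 of measured genes. Bcl2l1 (ENSMUSG00000007659, chromosome 2 from 152780668 to 152831728) encodes BCL-XL and, by alternative splicing, the death-promoting short form BCL-XS. It stood at 52.9 FPKM from 7750 reads and at 35.7 FPKM from 5215 reads, 1.48-fold lower (1.43 to 1.54). Only 6.95% of measured genes had a lower log2 ratio. GENCODE M21 gives Bcl2l1 9 transcripts, and a gene-level value cannot tell the long form from the short one.

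The other pro-survival genes were lower in level and nearer to the control. Bcl2l2, which encodes BCL-W (ENSMUSG00000089682, chromosome 14 from 54883377 to 54888234), stood at 15.1 FPKM from 2157 reads and at 15.0 FPKM from 2138 reads, a ratio of 0.993 (0.935 to 1.05). Bcl2, the founding gene of the family (ENSMUSG00000057329, chromosome 1 from 106538178 to 106714274), stood at 5.40 FPKM from 1578 reads in the control. With Oct4 and SOX2 it stood at 5.96 FPKM from 1739 reads, 1.10-fold higher (1.03 to 1.18). Bcl2 was thus the least abundant pro-survival member in both libraries. The Mcl1 level was 21.2 times that of Bcl2 in the control and 16.2 times with Oct4 and SOX2.

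The order Mcl1, Bcl2l1, Bcl2l2, Bcl2 was the same in both libraries. Summed, the 4 pro-survival genes came to 188 FPKM in control cells and to 153 FPKM in cells given Oct4 and SOX2. Mcl1 held 60.9% and 63.0% of these sums, and Bcl2l1 28.2% and 23.3%. The Mcl1 level was 2.16 times that of Bcl2l1 in the control and 2.71 times with Oct4 and SOX2. Such sums add RNA levels per length and say nothing of protein amounts.

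Both effector members were higher with Oct4 and SOX2. Bok (ENSMUSG00000026278, chromosome 1 from 93685660 to 93695764) encodes an effector whose protein is kept low by proteasomal degradation. It stood at 16.0 FPKM from 938 reads in the control and at 22.2 FPKM from 1304 reads, 1.39-fold higher (1.28 to 1.52), the highest ratio among the members. Its log2 ratio was above that of 90.1% of measured genes. Bak1 (ENSMUSG00000057789, chromosome 17 from 27019810 to 27029009) encodes BAK, which sits in the outer membrane before any stress. It stood at 22.1 FPKM from 1699 reads and at 25.8 FPKM from 1976 reads, 1.17-fold higher (1.09 to 1.24).

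The third effector gene, Bax, is not among the members but was far more abundant than either. Bax stood at 87.6 FPKM in the control and at 81.1 FPKM in cells given Oct4 and SOX2, 1.08-fold lower (1.03 to 1.13). The 3 effector genes together came to 125.6 and 129.1 FPKM, of which Bax held 69.7% and 62.8%. Without Bax, the sum of Bak1 and Bok was 38.1 and 48.0 FPKM. The pro-survival sum was 1.496 times the effector sum with Bax in the control and 1.19 times with Oct4 and SOX2.

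The BH3-only members did not share a direction. Bid (ENSMUSG00000004446, chromosome 6 from 120891930 to 120916853) encodes the protein that caspase-8 cleaves to link death receptors to mitochondria. It stood at 17.5 FPKM from 1984 reads in the control and at 11.7 FPKM from 1321 reads with Oct4 and SOX2, 1.499-fold lower (1.40 to 1.61). On the FPKM + 1 scale its log2 ratio of -0.55 fell short of the 1.5-fold rule. Bad (ENSMUSG00000024959, chromosome 19 from 6941861 to 6951898) encodes a protein that survival kinases inactivate by phosphorylation. It stood at 13.9 FPKM from 892 reads and at 12.1 FPKM from 776 reads, 1.15-fold lower (1.04 to 1.26).

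Bcl2l11 (ENSMUSG00000027381, chromosome 2 from 128126038 to 128162547) encodes BIM, an activator of the effectors made in several splice forms. It stood at 3.31 FPKM from 849 reads in the control and at 4.10 FPKM from 1049 reads with Oct4 and SOX2, 1.24-fold higher (1.13 to 1.36). Bcl2l11 was the least abundant measured member in both libraries. Pmaip1 (ENSMUSG00000024521) encodes NOXA, which binds MCL1 and is a known target of p53. Pmaip1 had 0 reads in both libraries, and 3 reads, the limit that a count of 0 allows, would be 0.0355 FPKM in the control library and 0.0356 FPKM in the other. No ratio is given for it.

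**Figure D2:**
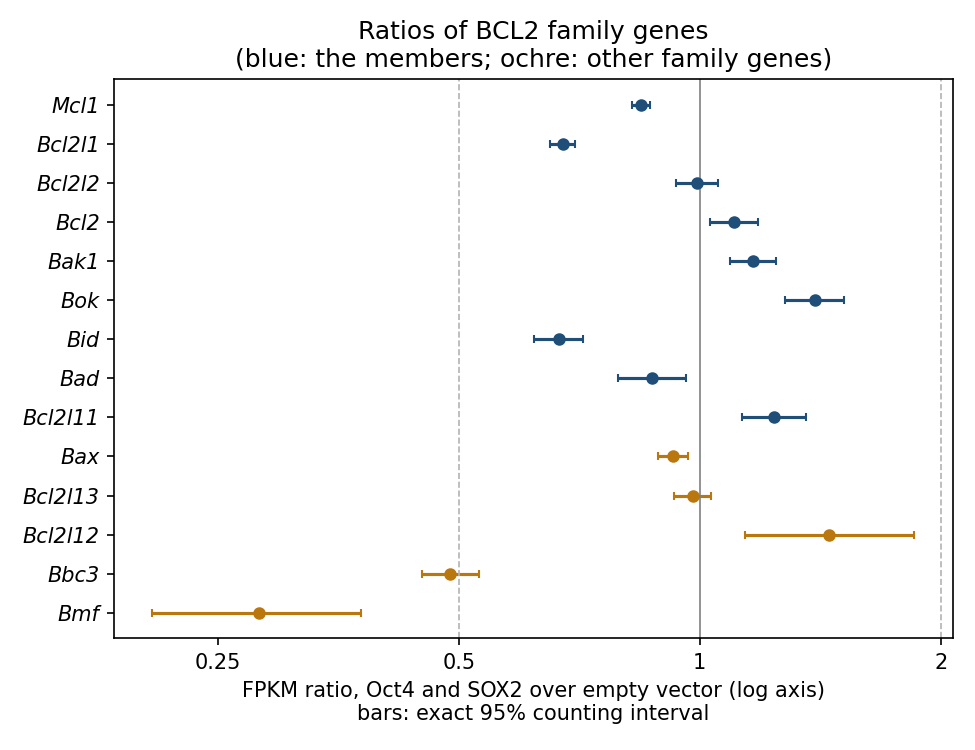
FPKM ratio of the Oct4 and SOX2 library over the empty-vector library (horizontal, log axis) for the 9 measured members (blue) and 5 other BCL2 family genes (ochre), with exact 95% counting intervals and dashed lines at 2-fold. The members lie within 2-fold of 1, and Bbc3 and Bmf lie lowest.

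Some members share exon bases with another gene. Whether reads were counted by strand is not given in the sources used here, so reads in a shared stretch on opposite strands may not be assignable. Bid and Bcl2l13 lie on opposite strands and share 628 exon bases, and Bcl2l13 stood at 9.91 and 9.71 FPKM. Bad shares 524 exon bases with Gpr137 on the opposite strand, at 7.47 and 10.2 FPKM. Bak1 shares 437 with Ggnbp1, at 0.329 and 0.425 FPKM. Bcl2 shares 558 with D630008O14Rik on the opposite strand, which had 2 reads in the control library and 0 in the other. Bcl2l2 shares 594 with Gm20521 on the same strand, which had 0 reads in both libraries. Reads in that stretch may not be assignable even if reads were counted by strand. The effect of these overlaps on the members' values was not tested.

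Larger differences stood among the BH3-only genes outside the members. Bbc3 encodes PUMA, a BH3-only activator induced by p53. Bbc3 stood at 26.2 FPKM from 1777 reads in the control and at 12.8 FPKM from 866 reads with Oct4 and SOX2, 2.05-fold lower (1.89 to 2.22). Bmf, a BH3-only gene linked to loss of anchorage, stood at 1.25 and 0.353 FPKM from 210 and 59 reads, 3.55-fold lower (2.65 to 4.83). Both passed the 1.5-fold rule on the FPKM + 1 scale, 2 of 5 measured genes in a list of 14 other family genes, where 6.34% of all measured genes were as far lower. Bcl2l12 was 1.45-fold higher (1.14 to 1.85) at 1.84 and 2.67 FPKM, and Bcl2l13 had a ratio of 0.979 (0.930 to 1.03). Bmf passed the filter through the control library alone. The median log2 ratio of these 5 was -0.11, and 6 of the other genes in the list, among them Hrk, had 0 reads in both libraries. With Bbc3 added, the BH3-only sum was 61.0 FPKM in the control, 43.0% of it Bbc3, and 40.7 FPKM with Oct4 and SOX2, 31.4% of it Bbc3.

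**Figure D3:**
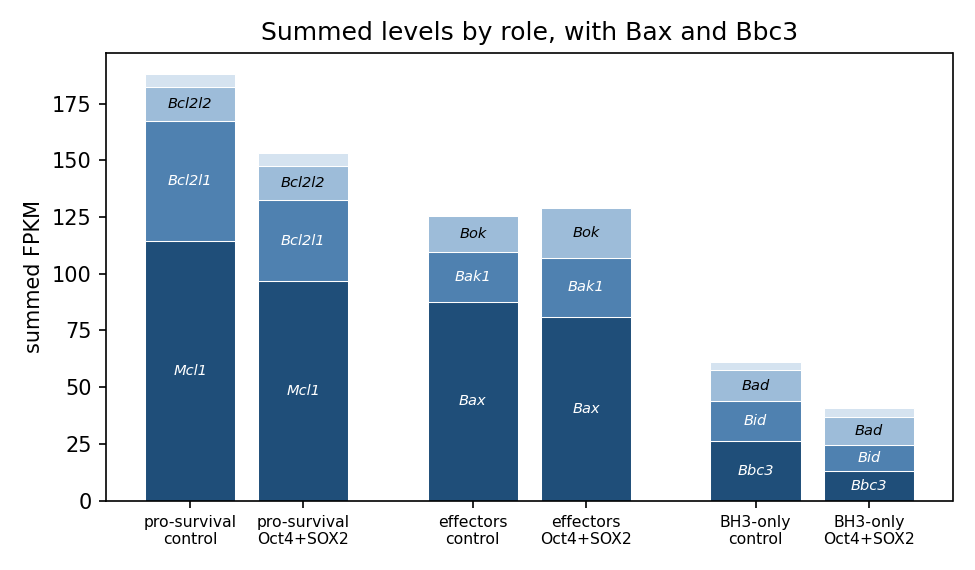
Summed FPKM (vertical axis) of the pro-survival genes, the effector genes with Bax, and the BH3-only genes with Bbc3, in the control and the Oct4 and SOX2 library, 1 library each. The unlabelled top segments are Bcl2 and Bcl2l11. The pro-survival sum is 188 and 153 FPKM, and the effector sum 125.6 and 129.1 FPKM.

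Transcription factors known to act on family genes were mostly less than 1.5-fold from the control. Of 18 measured, 2 were at least 1.5-fold higher, beside 6.58% of all measured genes, and 1 was at least as far lower, beside 6.34%. Their log2 ratios were below 0 for 13 and above 0 for 5, with a median of -0.13, beside -0.01 over all measured genes. Ddit3 encodes the stress factor CHOP, known to act on Bcl2l11 and Bbc3. It stood at 76.4 and 35.8 FPKM, 2.13-fold lower (2.02 to 2.25). E2f1, a cell cycle factor, was 1.58-fold higher (1.498 to 1.67) at 20.7 and 32.8 FPKM. Stat3, a factor that acts on Bcl2l1 and Mcl1, was 1.62-fold higher (1.54 to 1.70) at 7.955 and 12.9 FPKM. The p53 gene itself, Trp53, had a ratio of 1.02 (0.978 to 1.06) at 37.7 and 38.4 FPKM.

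The list of p53 circuit genes, without Trp53 itself, had 3 measured members, and 1 of them was at least 1.5-fold lower, beside 6.34% of all measured genes. Cdkn1a, the gene for the cell cycle inhibitor p21, was 1.55-fold lower (1.51 to 1.58) at 144 and 93.3 FPKM. Mdm2, the gene for the ligase that degrades p53, stood at 81.4 and 60.9 FPKM, and Mdm4 at 14.7 and 12.2 FPKM. Cdkn2a, whose products include an inhibitor of MDM2, had 0 reads in both libraries. Among Bbc3, Bax and Fas, also known p53 targets, Bbc3 was 2.05-fold lower and Bax had a ratio of 0.926 (0.888 to 0.967). Fas alone of these was higher, 2.46-fold, from 33 and 81 reads. The p53 targets in these lists were not gathered as a set, so no shared direction is stated for them.

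Downstream of the mitochondria, the 10 apoptosome and caspase genes were all measured. None passed the 1.5-fold rule, beside 12.9% of all measured genes, 6 had a ratio above 1, and the median log2 ratio of 0.21 was the highest of the 8 lists outside the members, beside -0.01 over all measured genes. Cycs, the cytochrome c gene, stood at 47.7 and 45.1 FPKM. Of 6 measured inhibitor of apoptosis genes and their antagonists, 0 passed the rule, and the median was 0.07. Htra2, a mitochondrial protease gene, stood at 19.4 and 21.9 FPKM, and Birc5, the survivin gene, at 13.9 and 18.1 FPKM.

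Upstream of Bid, the death receptor branch had 1 of 8 measured genes past the 1.5-fold rule, near the 12.9% of all measured genes, and a median of 0.03. This was Fas, a death receptor gene, at 0.574 and 1.41 FPKM from 33 and 81 reads, 2.46-fold higher (1.62 to 3.81). Fas passed the filter through the library in which it was higher. Among 12 genes of the outer mitochondrial membrane the median was 0.02, and 1 passed the rule, higher, beside 6.58% of all measured genes. That gene was Bnip3, a mitophagy receptor gene distantly related to the BH3-only group, 2.13-fold higher (2.01 to 2.27). Of 21 measured regulators of BCL2 family proteins, 2 passed the rule, both higher, beside 6.58% of all measured genes, and the median was 0.09. Usp9x, which encodes a deubiquitinase that stabilises MCL1, was 1.60-fold higher (1.57 to 1.64) at 28.1 and 45.1 FPKM.

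**Figure D4:**
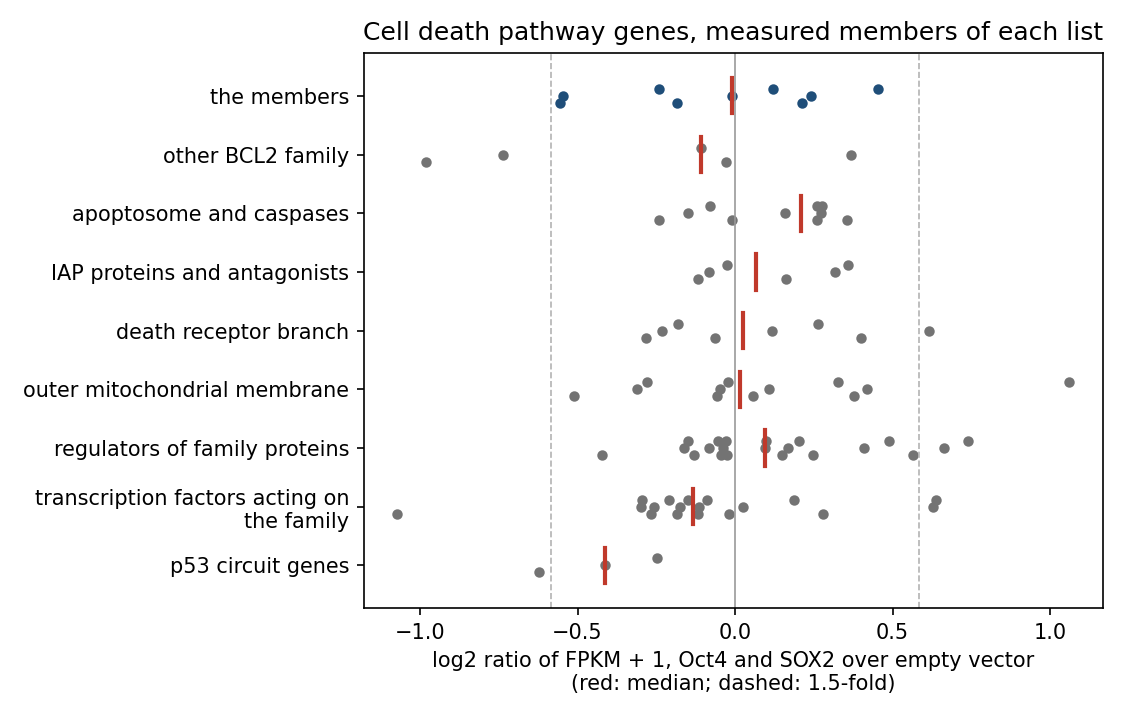
Log2 ratio of FPKM + 1 (horizontal axis), Oct4 and SOX2 over empty vector, for each measured gene of the members and of 8 cell death lists, 1 point a gene. Red bars are medians, from -0.41 for the p53 circuit genes to 0.21 for the apoptosome and caspases, and dashed lines mark 1.5-fold.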

How the data were processed

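RNA sequencing values of 2 libraries, grouped by their treatment label, were used. The authors deposited 1 table of FPKM values with gene lengths. The submitters' processing notes name CASAVA, HISAT2, featureCounts 1.5.0-p3 and the build GRCm38. No annotation release, read strand or rule for reads with several matches is given in the sources used here.

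Read numbers were recovered by multiplying FPKM by gene length and dividing by the smallest value above 0 in that library, which gave whole numbers, within 0.001 of a read, for 100% of values. The library totals implied by the FPKM scale were 0.989 (control) and 1.01 times the summed reads. The deposited FPKM thus carry a scaling between libraries beyond the summed reads. It makes each log2 ratio of plain FPKM 0.031 lower than on plain read totals. The log2 ratio used FPKM + 1, which understates differences of low genes, and genes under 1 FPKM in both libraries were filtered out. Folds are given without the pseudocount, with exact 95% intervals (conditional binomial, Clopper-Pearson). These intervals cover counting error and neither PCR duplication nor variation between cultures.

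The members and lists were chosen with earlier results of these data known. Genes were named by rule: the members, Pou5f1, Sox2, other family genes with at least 50 reads or 1 FPKM, genes overlapping a member, and in each list up to 3 genes a direction past 1.5-fold or else the 2 highest. Some genes that this rule takes are not reported here. Trp53, Mdm2, Mdm4, Cdkn2a, the markers and the genes of the closing section were named after their values were seen. GENCODE M21 gave exons. It has the coordinates of the deposited table for 8 of the 10 members, all but Bad and Pmaip1. Ddit3 has a second entry of 105 bases with 0 reads, left out. The steps were tested on simulated data. Alternatives were pseudocounts, filters, scalings, gene types and a counting interval. The software was pandas 2.3.3, scipy 1.17.1 and numpy 2.4.6, with figures by matplotlib 3.10.9, in Python 3.11.15.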

Additional observations from a re-analysis of the deposited data

How the results depend on the processing

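The counts of 0 members past 1.5-fold and past 2-fold were the same under every alternative run: a pseudocount of 0.1 or 5, plain read totals, scaling on all but the 50 highest genes, median centring, protein-coding genes only, a filter of 5 FPKM or none, and a counting interval wholly beyond the fold. Most of these could not have raised a count of 0. A pseudocount of 5 shrinks every ratio, and the interval rule is stricter than the fold alone. The filters and the restriction to protein-coding genes do not alter a member's ratio. A pseudocount of 0.1 still keeps each ratio nearer to 1 than the plain fold, and the largest plain fold was 1.499, for Bid. With it Bid stood at -0.580. Only the 3 scalings could have raised the count. No member changed sign except Bcl2l2, near 0 throughout, under the 3 scaling alternatives. The largest move of any member was that of Bid, from -0.546 to -0.433 with a pseudocount of 5. Bcl2l11 left the measured set with the filter of 5 FPKM. Counts over all genes depended on low values. At 1.5-fold, 816 genes were higher and 786 lower; with a pseudocount of 5 these were 278 and 282, with a filter of 5 FPKM 439 and 454, and over protein-coding genes only 484 and 460. At 2-fold, 300 and 230 became 520 and 459 with a pseudocount of 0.1, 75 and 56 with 5, 145 and 121 with the filter of 5 FPKM, and 143 and 110 over protein-coding genes. With the filter of 5 FPKM, the median log2 ratio of the inhibitor of apoptosis list was 0.16 and that of the death receptor list -0.12, on fewer genes; without a filter the median of the regulators was 0.035. No paired analysis was possible because each group holds 1 library. The counting intervals of Bid and Bcl2l1 both hold 1.5, so at this depth their side of the 1.5-fold rule is not settled, and spread between cultures was not measured.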

Other observations

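Related genes within the lists stood apart from one another. Of the voltage-dependent anion channel genes, Vdac1 stood at 120.3 FPKM in control cells and at 151 FPKM in cells given Oct4 and SOX2, while Vdac2, whose protein binds BAK, stood at 61.5 and 50.5 FPKM and Vdac3 at 38.6 and 26.8 FPKM. Of the PIM kinase genes, whose products can phosphorylate BAD, Pim1 stood at 8.67 and 13.3 FPKM and Pim2 at 2.10 and 3.35 FPKM, and Pim3, the most abundant, at 117 and 115 FPKM. Of the 14-3-3 genes, whose products hold phosphorylated BAD in the cytosol, Ywhag stood at 193 and 143 FPKM and Ywhah at 67.5 and 80.2 FPKM, while Ywhae, the most abundant, stood at 238 and 233 FPKM and Ywhaz at 199 and 191 FPKM. Cflar, the gene for the caspase-8 inhibitor FLIP, stood at 29.3 and 23.9 FPKM, and Xiap, a caspase inhibitor gene, at 11.97 and 15.2 FPKM.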
